A study of Kluyveromyces lactis with 12 samples.

Results

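The genes described here are those of the yeast Kluyveromyces lactis whose RNA was lower in wild-type cells under arsenite and lay near the untreated level under tert-butyl hydroperoxide (t-BOOH). They were chosen from wild-type intensities, as the log2 processed signal averaged over the spots of a gene, with the median of the array subtracted and the mean taken over the 4 arrays of a condition. A gene was taken where arsenite minus untreated was at most -0.8 and t-BOOH minus untreated lay between -0.5 and 0.5. Of 5081 genes on the array, 125 met both limits, and 92 of them carry a gene symbol in the RefSeq annotation while 33 are known by their identifier. The same arsenite limit was met by 214 genes that fell under the t-BOOH range and by 102 that lay above it.

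The measurements came from 12 Agilent arrays with 2 dyes. An array held RNA of wild-type cells (Klwt) in one dye and RNA of Klyap8∆ cells, which lack the transcription factor gene YAP8, in the other, both from the same condition. Cells growing exponentially in YPD, a rich medium, were left untreated or were exposed for 30 min to sodium arsenite or to 0.25 mM t-BOOH, with 4 biological experiments per condition and the dyes exchanged on 2 of them. For arsenite the labels differ, with 25 mM in each sample's treatment field and 0.1 mM in the protocol text. The deletion is carried by the test strain in all 3 conditions, and the labels do not say whether that strain was 1 clone or several.

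Arsenite, the trivalent form of arsenic, binds the thiol groups of proteins, and t-BOOH is an organic hydroperoxide used as an oxidant. In Saccharomyces cerevisiae Yap8, also called Arr1, is the activator of the genes that export arsenic. Roles given below are those known from Saccharomyces cerevisiae, since most symbols were taken from that yeast. Several concern metal uptake at the cell surface, where copper and iron are reduced before they are transported, and the sterol pathway, which leads from acetyl-CoA through mevalonate to ergosterol, the main sterol of yeast membranes. No sequence is shown.

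The wild-type arsenite differences that chose the 125 genes ran from -3.40 to -0.80 with a median of -1. They were -1 or lower for 63 genes, -1.5 or lower for 20 and -2 or lower for 10. The members nearest the arsenite limit were ATP20, KLLA0C05412g and ACF4, all at -0.80 after rounding, and the nearest genes outside it were ERG26, KLLA0C16467g and SEC62, also at -0.80 after rounding. At the upper t-BOOH limit APE3 (0.48), DTR1 (0.47) and RSN1 (0.47) lay inside and DMC1 (0.51), NVJ3 (0.51) and KLLA0B06215g (0.52) outside. At the lower limit STB1 (-0.49), KLLA0C01001g (-0.49) and KLLA0F00843g (-0.47) lay inside and LRS4 (-0.50), KLLA0F06512g (-0.52) and FCY1 (-0.53) outside. Since the rule allows 0.5 either way, membership does not say that a gene had no response to t-BOOH.

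**Figure D1:**
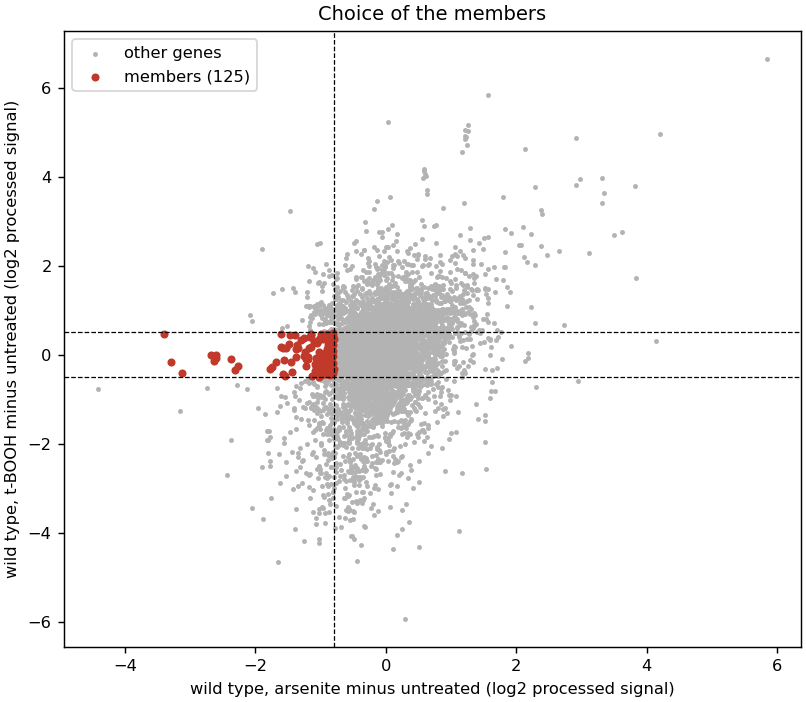
Each point is a gene, with the wild-type difference between arsenite and untreated on the horizontal axis and between t-BOOH and untreated on the vertical axis, both in log2 processed signal. The dashed lines are the limits of -0.8, -0.5 and 0.5, and the 125 members (red) fill the strip between them and reach -3.40.

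The arrays were bright, with median spot intensities of 719 to 7163.5 in the wild-type channel and 1330.5 to 7526 in the deletion channel over local backgrounds of 20 to 39, and no spot was saturated. For the YAP8 gene, listed as ARR1, the log2 ratio of the deletion strain to the wild type was -2.20 to -0.61, below 0 on each of the 12 arrays, and the position of its probe relative to the deleted stretch is not stated. Untreated replicate 4 stood apart from its group: its deletion-strain levels correlated over genes with the other untreated arrays at a mean r of 0.937, against 0.971 to 0.975 for those. Among t-BOOH arrays replicate 1 stood apart, at 0.912 against 0.962 to 0.966. The arrays of untreated and arsenite-treated cells shared a slide, whereas the t-BOOH arrays were on a different slide, so slide and condition cannot be told apart in any comparison with t-BOOH. All 125 members passed the filter on dim genes, which 5069 of the 5081 genes passed.

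The members depend on untreated replicate 4. In the wild type it was the highest of the 4 untreated arrays for 95 of the 125 members (76.0%, against 48.0% of all genes). In the deletion strain, which did not enter the choice, it was the highest for 110 members (88.0%, against 47.9% of all genes), and it exceeded the mean of the other 3 by a median of 0.87, against 0.14 over all genes. Without that array 73 genes met the rule, 49 of them among the 125. Of the others, 25 lay over and 5 under the t-BOOH range, and 61 of the 125 stayed at or under the arsenite limit. The main counts below are therefore given with and without untreated replicate 4.

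The deletion strain's RNA gives the same contrast in samples that the rule did not use. It shared every array and spot with the wild type, and the correlation of the 2 channels of a spot was estimated at 0.63, so the strains are not independent measurements. In RNA from whole cultures, fewer cells with a transcript and less of it per cell cannot be told apart. Under arsenite the deletion strain's level was below untreated for 124 of the 125 members, with a median log2 difference of -0.65, against -0.03 over all genes tested. Of the 125, 45 were called lower (36%), against a background of 3.71% (188 of 5069 genes; limma separate-channel fit, Benjamini-Hochberg adjusted p under 0.05 over all genes tested), and 0 were called higher, against 6.29%. The differences ran from -3.03 to 0.03 with quartiles of -0.89 and -0.44. The difference was at least 2-fold for 24 members, 22 of them called. How many of all genes fell at least 2-fold was not counted, with or without untreated replicate 4. All 4 arsenite arrays lay below all 4 untreated arrays for 76 members, against a background of 11.9%. When untreated replicate 4 was left out, 16 members had a difference of at least 2-fold, 14 of them called, and the arsenite arrays lay below the 3 remaining untreated arrays for 78 members, against 18.4% of all genes.

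Leaving out untreated replicate 4 gave 35 members called lower, against 4.02% of all genes, and a median of -0.48. Both fits called 32 of them. Of the 49 genes that still met the rule without that array, 26 were among the 45 called with all arrays, and of the other 76 genes 19 were. The call also moved with single arrays of other groups, from 26 members without arsenite replicate 3 (background 1.74%) to 77 without t-BOOH replicate 1 (background 9.35%). There were 27 each without arsenite replicates 1 (1.62%) and 4 (1.81%) and 30 without untreated replicate 2 (2.27%).

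**Figure D2:**
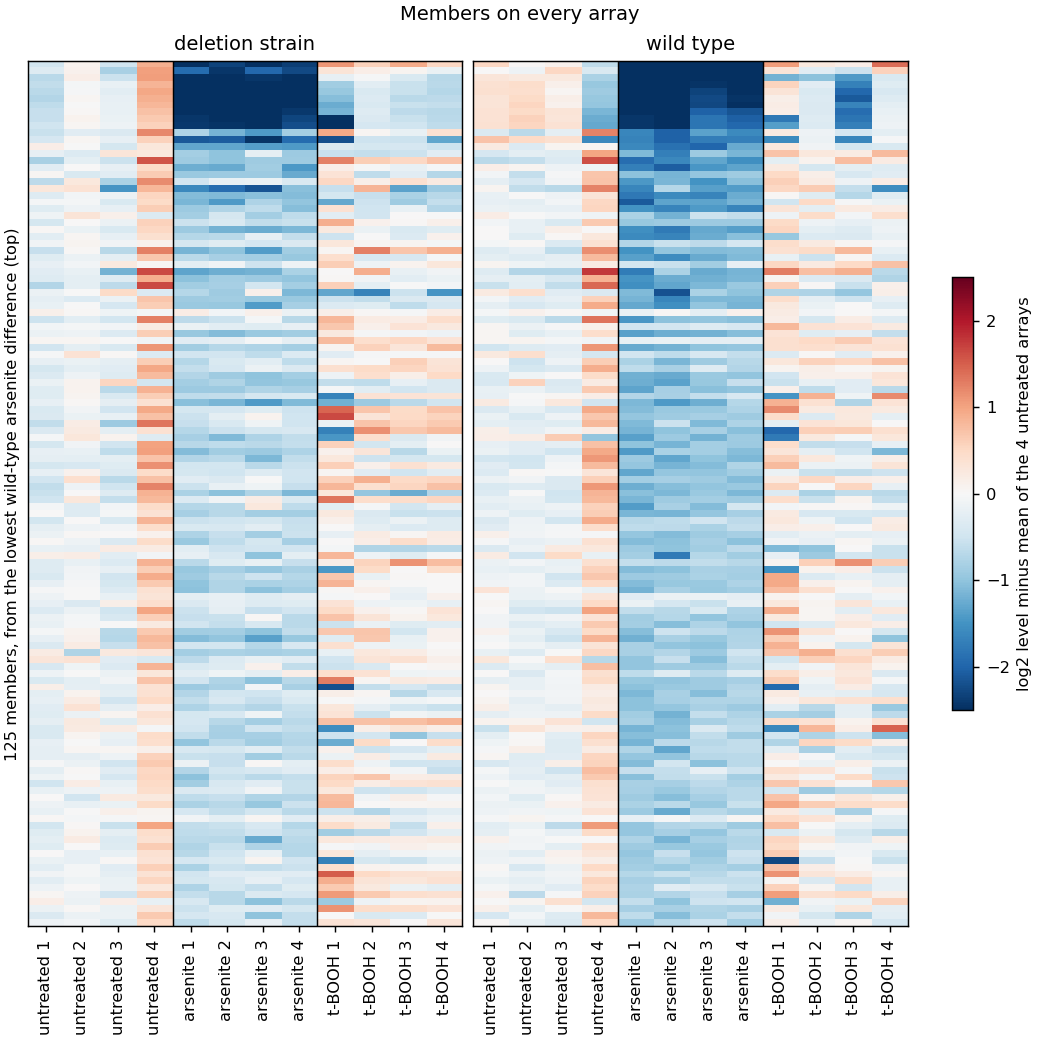
Each line is 1 of the 125 members, ordered from the lowest wild-type arsenite difference at the top, and each column an array, in the deletion strain (left) and the wild type (right). Colour is the log2 level minus the mean of the 4 untreated arrays of that strain, with colours ending at 2.5 either way. The untreated replicate 4 column is red for most members, and most arsenite cells are blue in both strains.

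Under t-BOOH the deletion strain's median difference over the members was -0.02, against 0.07 over all genes. Lower calls were made for 6 members (4.8%, against 19.4% of all genes), and 10 were called higher (8%, against 24.1%). The lower genes were VCX1, CRH1, NPT1, NOT3, THO1 and SVS1. Among the 10 higher, SGF29, a subunit of the SAGA transcription complex, stood at 0.84 (SE 0.25, adjusted p = 0.0106) and BIM1, which binds microtubule plus ends, at 0.75 (SE 0.27, adjusted p = 0.026). The other 8 were KLLA0E23805g, KLLA0A05687g, KLLA0E16743g, SFB3, KLLA0F00528g, CTF13, CKB1 and ACF4. Without untreated replicate 4 the higher calls numbered 35 (background 29.2%) and the lower calls 5 (background 22.2%).

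The difference between the stresses was tested directly in the deletion strain. Levels were lower under arsenite than under t-BOOH for 71 members (56.8%, against 24.2% of all genes), and 0 were higher, against 19.8%. Without untreated replicate 4 the count was 86 (background 28.1%). Of the 45 genes lower than in untreated cells, 34 were also lower than under t-BOOH, 3 (VCX1, CRH1 and THO1) were also called lower under t-BOOH, and 0 were called higher under it. A further 37 members were lower than under t-BOOH without a call against untreated cells, and 43 had neither call. Without untreated replicate 4, 32 of the 35 genes lower than in untreated cells were also lower than under t-BOOH, 2 (VCX1 and CRH1) were also called lower under t-BOOH, and 5 (DTR1, ERG4, ERV25, KLLA0F00528g and KLLA0E00881g) were called higher under it. A further 54 were then lower than under t-BOOH without a call against untreated cells, and 36 had neither call.

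Among members with a symbol, CTR1, DTR1 and FRE1 had the largest falls in the deletion strain. CTR1, the high-affinity copper transporter of the plasma membrane, had log2 intensities in the deletion strain of 14.02, 14.87, 14.16 and 15.74 on untreated arrays 1 to 4, of 11.78, 11.89, 12.26 and 12 under arsenite, and of 14.50, 14.67, 14.31 and 14.01 under t-BOOH. The arsenite arrays lay below all others with no overlap, and the untreated and t-BOOH ranges overlapped. The arsenite difference was -2.71 (SE 0.46, adjusted p = 0.000702) and the difference from t-BOOH -2.39 (adjusted p = 0.00029). In the wild type CTR1 stood at 15.18, 15.11, 15.12 and 14.07 untreated, where replicate 4 was the lowest array, whereas in the deletion strain the same array was the highest.

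FRE1 encodes a ferric and cupric reductase of the plasma membrane. In the deletion strain it stood at 10.33, 10.77, 9.85 and 11.68 untreated, 8.73, 8.23, 8.70 and 8.40 under arsenite, then 10.97, 10.83, 10.72 and 10.49 under t-BOOH. Here too every arsenite array lay below every other one, by a difference from untreated of -2.14 (SE 0.41, adjusted p = 0.00169). ZRT2, a low-affinity zinc transporter, ran at 12.74, 12.93, 13.06 and 13 untreated, 12.52, 12.32, 12.48 and 12.26 under arsenite, then 12.40, 12.20, 12.52 and 12.67 under t-BOOH. Its differences of -0.54 under arsenite and -0.49 under t-BOOH did not pass (adjusted p = 0.128 and 0.0747), although both stressed groups lay below all untreated arrays. Of the 3 uptake members, 2 were called lower under arsenite (background 3.71%), and the same count was called without untreated replicate 4 (background 4.02%). This group was put together after the values were seen. In the wider list of nutrient and ion transporters, which holds CTR1 and ZRT2, 1 of 36 measured genes (CTR1) was called lower (2.78%, under the 3.71% of all genes) and 2 were called higher, with 3 lower and 2 higher without untreated replicate 4.

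DTR1, a transporter of the major facilitator family known from the making of the spore wall, had the lowest wild-type difference of all members. Its deletion-strain levels were 9.40, 9.96, 9.36 and 10.75 untreated, 7.35, 7.55, 7.25 and 7.51 under arsenite, then 10.98, 10.45, 10.80 and 10.39 under t-BOOH. The arsenite group was separate from both others, with a fall of -2.45 (SE 0.42, adjusted p = 0.000702) against untreated and of -3.24 (adjusted p = 3.52e-06) against t-BOOH. Without untreated replicate 4 the first difference was -2.13 (adjusted p = 1.27e-05), and DTR1 was then called higher under t-BOOH, at 1.13 (adjusted p = 0.000844), against 0.79 (adjusted p = 0.136) with all arrays.

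Members that exchange calcium or pump protons also fell. GDT1, a Golgi exchanger of calcium and manganese, stood at 13.21, 13.52, 13.30 and 13.98 in untreated deletion cells, at 12.29, 12.24, 12.63 and 12.06 under arsenite and at 13.67, 13.48, 13.32 and 13.47 under t-BOOH. The arsenite arrays were all below the rest, by -1.20 against untreated (SE 0.22, adjusted p = 0.00144). The vacuolar calcium and proton exchanger VCX1 fell by 1.08 (SE 0.18, adjusted p = 0.000419), from 13.76, 14.02, 13.95 and 14.62 untreated to 13.01, 12.98, 13.04 and 13.01 under arsenite. VCX1 was also lower under t-BOOH, at 13.64, 13.52, 13.30 and 13.39, a difference of -0.63 (SE 0.18, adjusted p = 0.00586), so in this strain its fall was shared by both stresses. VMA16, a membrane subunit of the vacuolar proton pump, fell by 0.70 (SE 0.19, adjusted p = 0.0238) and was not called without untreated replicate 4 (adjusted p = 0.0606).

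**Figure D3:**
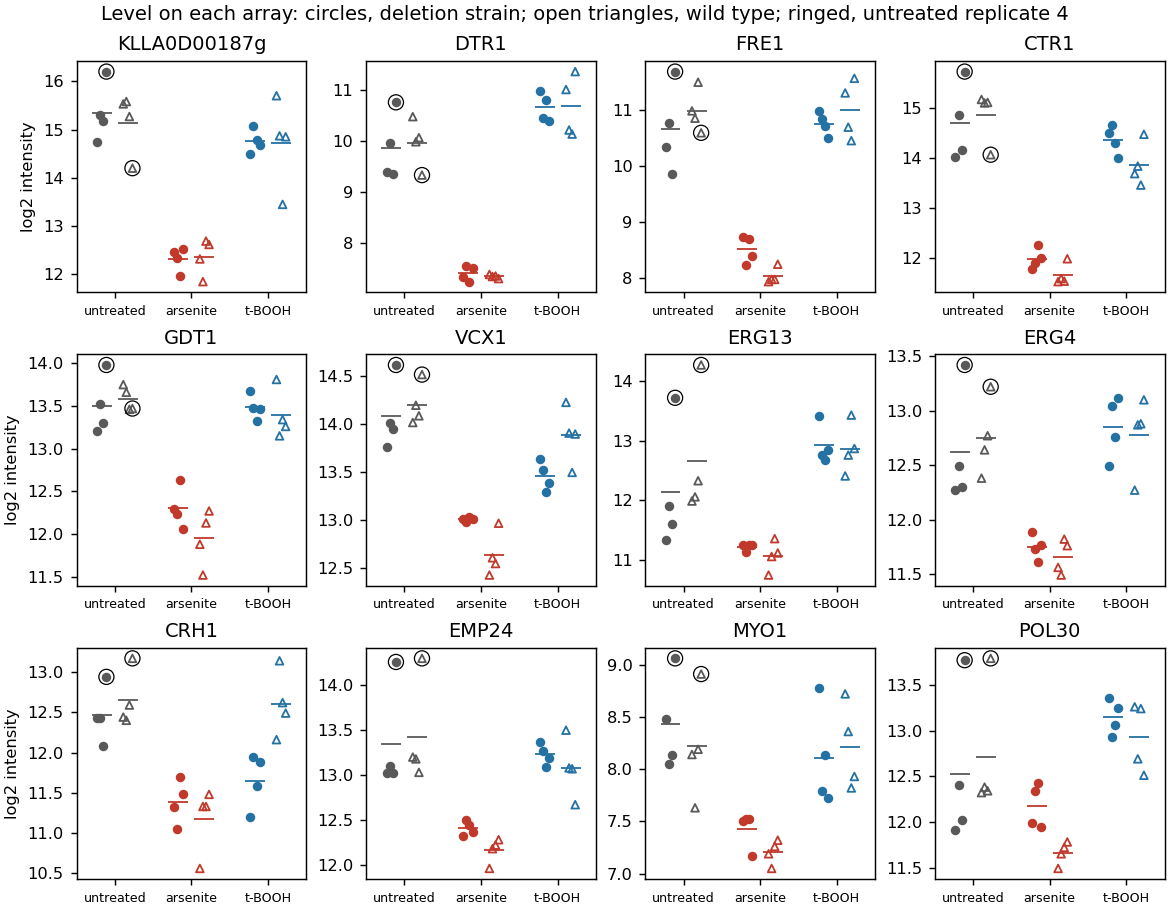
Log2 intensity on each array for 12 members, with filled circles for the deletion strain, open triangles for the wild type, bars for the mean of 4 arrays and rings around untreated replicate 4. For CTR1, FRE1, DTR1 and GDT1 the arsenite arrays lie apart from the other 2 groups in the deletion strain, while for POL30 they overlap the untreated arrays other than the ringed one.

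The members with the largest falls in the deletion strain, besides CTR1, were 4 of 7 unnamed genes at position 3 or 4 from a chromosome end. In untreated deletion cells KLLA0D00187g stood at 14.74, 15.30, 15.17 and 16.20, under arsenite at 12.47, 12.33, 11.97 and 12.53, and under t-BOOH at 14.49, 15.08, 14.79 and 14.68. No arsenite array reached the lowest of the others, and the difference was -3.03 (SE 0.54, adjusted p = 0.00106). All 7 were called lower (background 3.71%), with differences of -3.03 to -2.45 and a median of -2.89. All 7 were also called without untreated replicate 4 (background 4.02%). Against t-BOOH 5 of them were called lower (background 24.2%), with KLLA0F00220g (adjusted p = 0.0839) and KLLA0E00177g (adjusted p = 0.0556) outside the threshold. Without untreated replicate 4 all 7 were called lower than under t-BOOH (background 28.1%). They lie on chromosomes A, B, C, D, E and F, at both ends of D, and 6 have the same coding length of 441 bp, the other (KLLA0B00187g) 324 bp. Near-identical copies can share signal between probes, so how far their 7 values are separate measurements is uncertain. Their t-BOOH differences ran from -1.16 to -0.59 and none was called.

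On untreated replicate 4 the strains lay on opposite sides of their groups. KLLA0D00187g stood at 14.20 in the wild type, against 15.53, 15.58 and 15.27 on the other untreated arrays, while on that array the deletion strain gave its highest value. All 7 genes still met the rule without it, with wild-type arsenite differences of -2.78 to -2.42. Without the 7 genes the count of members called lower in the deletion strain was 38 (background 3.71%), and 28 without untreated replicate 4 (background 4.02%).

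Position and length were not used by the rule. Of the 125 members, 13 (10.4%) were among the 15 outermost genes of a chromosome end, against 179 (3.5%) of all genes, and the 7 genes above are among these 13. ADH4, an alcohol dehydrogenase, lies at position 3 of the right end of chromosome C. Its deletion-strain levels were 11.86, 12.10, 11.85 and 12.45 untreated, 11.02, 10.92, 10.65 and 10.96 under arsenite, then 10.86, 11.16, 11.40 and 11.58 under t-BOOH. Both stressed groups lay below the untreated one, and the arsenite difference was -1.17 (SE 0.37, adjusted p = 0.0455; 0.05 without untreated replicate 4, which is outside the threshold). There were 3 pairs of neighbouring members, PAN5 with SUM1, SMC1 with KLLA0D07524g, and NCP1 with NSE3. The deletion strain's arsenite differences were -0.82 and -0.41 in the first pair, -0.52 and -0.50 in the second, and -0.31 and -0.50 in the third, and PAN5 alone was called. The median coding length was 969 bp over members and 1227 bp over all genes.

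Sterol and fatty acid synthesis supplied 9 members, from acetyl-CoA to the end of the ergosterol pathway. Acetyl-CoA synthetase (ACS2), the condensing enzymes ERG10 and ERG13, the HMG-CoA reductase HMG1, the mevalonate decarboxylase MVD1, the P450 reductase NCP1, the scaffold ERG28, the last enzyme ERG4 and the fatty acid elongation reductase IFA38 were all below untreated in the deletion strain, by -0.92 to -0.31. Of the 9, 4 were called lower (ERG10, HMG1, ERG4 and IFA38), against 36% of all members and 3.71% of all genes. Without untreated replicate 4 there was 1 (ERG4), against 4.02% of all genes.

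ERG13, HMG-CoA synthase, showed how much rested on that array. It stood at 11.34, 11.91, 11.61 and 13.72 in untreated deletion cells, at 11.26, 11.14, 11.25 and 11.25 under arsenite and at 13.41, 12.76, 12.67 and 12.85 under t-BOOH. All arsenite arrays lay below all untreated ones, yet the difference of -0.92 (SE 0.41) did not pass (adjusted p = 0.174), and it was -0.39 without replicate 4. Against t-BOOH ERG13 was lower by 1.70 on the log2 scale (a difference of -1.70, adjusted p = 0.00206).

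ERG10, acetoacetyl-CoA thiolase, ran at 13.62, 13.78, 13.67 and 14.60 untreated, 13.25, 13.08, 13.06 and 12.97 under arsenite, then 14.34, 13.52, 13.52 and 13.89 under t-BOOH. Its arsenite arrays lay below both other groups, with a difference of -0.83 (SE 0.25, adjusted p = 0.0361), and of -0.60 (adjusted p = 0.0676) without untreated replicate 4. ERG4, the reductase that makes ergosterol, ran at 12.27, 12.49, 12.30 and 13.42 untreated, 11.89, 11.73, 11.61 and 11.77 under arsenite, then 12.49, 13.04, 12.76 and 13.12 under t-BOOH. It fell by 0.87 (SE 0.22, adjusted p = 0.0129), and by 0.61 without replicate 4 (adjusted p = 0.0338).

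Over the wider list of fatty acid and sterol synthesis, which also holds haem synthesis genes, 46 genes were measured and 8 are members. In the deletion strain under arsenite 11 of the 46 were called lower (23.9%, against 3.71% of all genes) and 0 higher (background 6.29%). The median was -0.49, against -0.03 over all genes, and 6 were called lower without untreated replicate 4 (background 4.02%). Of the 11, the 7 that are not members were UPC2, ERG25, HEM14, FAS2, ERG9, ERG5 and ERG3. All of these but HEM14 and ERG9 were also called lower under t-BOOH. Of the 46 genes, 10 were called lower under t-BOOH (background 19.4%) and 5 higher (background 24.1%). The transcription factor gene UPC2, which activates sterol genes, stood at -1.23 under arsenite and -2.12 under t-BOOH, and the C-5 desaturase gene ERG3 at -1.05 and -2.07. ERG9, squalene synthase, stood at -0.80 in the wild type, short of the rule's limit by less than rounding shows.

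Polyamine synthesis had 2 members. SPE3, spermidine synthase, stood at 13.36, 13.54, 13.45 and 14.28 in untreated deletion cells, at 12.74, 12.90, 13.03 and 12.59 under arsenite and at 14.03, 13.16, 13.48 and 12.93 under t-BOOH. Its arsenite values lay below all untreated ones and overlapped the t-BOOH values, with a fall of 0.84 (SE 0.22, adjusted p = 0.0163). SPE1, ornithine decarboxylase, had a difference of -0.55 that did not pass (adjusted p = 0.105), from 12.88, 13.19, 12.93 and 13.54 untreated to 12.42, 12.47, 12.93 and 12.54.

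The secretory pathway had 6 members, of which 2 were called lower with untreated replicate 4 (background 3.71%, and 36% of all members) and without it (background 4.02%). These were EMP24 and ERV25, both p24 proteins that load cargo into vesicles leaving the endoplasmic reticulum. EMP24 stood at 13.02, 13.10, 13.02 and 14.26 untreated, 12.32, 12.50, 12.44 and 12.37 under arsenite, then 13.37, 13.27, 13.09 and 13.19 under t-BOOH. ERV25 stood at 13.99, 13.84, 13.60 and 14.42 untreated, 13.03, 13.32, 13.52 and 13.14 under arsenite, then 13.98, 14.12, 14.40 and 14.14 under t-BOOH. For both genes the arsenite group lay below the other 2, by -0.94 (SE 0.23, adjusted p = 0.00978) and -0.71 (SE 0.16, adjusted p = 0.00539) against untreated.

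SSS1, a subunit of the protein translocation channel, stood at 11.83, 11.86, 11.41 and 13.07 untreated, 10.96, 11.18, 11.13 and 11.28 under arsenite, then 12.15, 12.34, 11.34 and 11.88 under t-BOOH. Its arsenite arrays also lay below all others, but the difference of -0.90 (SE 0.31) did not pass (adjusted p = 0.0632). The other 3 were KSH1 at -0.83, ERD1 at -0.51 and SFB3, a cargo adaptor, at -0.43, none of them called. Against t-BOOH 5 of the 6 were lower (background 24.2%). In the list of protein secretion and vesicle traffic, which holds EMP24, ERV25 and SSS1, 3 of 42 measured genes were called lower (7.14%, against 3.71% of all genes). The 3 include EMP24 and ERV25, which the rule chose for their low wild-type values, so the share is not that of an independent list. There 5 were called higher, against 6.29% of all genes, and the median was -0.15. Without untreated replicate 4, 2 were lower (background 4.02%) and 5 higher.

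Cell wall and surface proteins gave 6 members. CRH1, which links chitin to glucan, stood at 12.43, 12.43, 12.08 and 12.94 untreated, at 11.32, 11.05, 11.70 and 11.48 under arsenite and at 11.20, 11.95, 11.58 and 11.88 under t-BOOH. Both stressed groups lay below all untreated arrays and overlapped each other, at -1.09 (SE 0.24, adjusted p = 0.00499) and -0.82 (SE 0.24, adjusted p = 0.00803). SUR7, a protein of the membrane domains called eisosomes, fell by 1.12 under arsenite (SE 0.21, adjusted p = 0.00168) and stood at -0.15 under t-BOOH. The wall proteins TOS1 (-0.75) and SVS1 (-0.59), the dolichol phosphatase CAX4 (-0.80) and the GPI-anchor mannosyltransferase SMP3 (-0.71) were not called. In the cell wall and glycosylation list 8 of 65 genes were called lower (12.3%, against 3.71% of all genes) and 6 without untreated replicate 4 (background 4.02%). CRH1 is the only member in that list, so its other lower genes are not members.

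Cytokinesis and cell polarity gave 5 members, 3 of them called lower, against 36% of all members and 3.71% of all genes. MYO1, the myosin heavy chain of the contractile ring, stood at 8.48, 8.05, 8.14 and 9.06 untreated, 7.50, 7.52, 7.52 and 7.17 under arsenite, then 8.78, 7.79, 8.14 and 7.72 under t-BOOH. The arsenite group lay below both others, by -1.01 against untreated (SE 0.26, adjusted p = 0.0139). Its light chain MLC1 fell by 0.95 (SE 0.19, adjusted p = 0.00221) and the GTPase gene RHO4 by 0.83 (SE 0.21, adjusted p = 0.0149), the latter not called without untreated replicate 4 (adjusted p = 0.0549). BUD4, which marks bud sites, was dim and overlapped between groups, at 6.82, 6.66, 7.18 and 7.45 untreated, 6.66, 6.83, 6.70 and 6.73 under arsenite, then 7.36, 6.90, 6.92 and 6.83 under t-BOOH. Of the 58 measured genes of the cell cycle and cytokinesis list 10 were called lower (17.2%, against 3.71% of all genes), 6 without untreated replicate 4 (background 4.02%). The list holds 5 members, of which MYO1 alone was among the 10, and it does not hold MLC1 or RHO4.

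DNA replication and repair gave 12 members, with arsenite differences of -0.70 to -0.15 in the deletion strain (median -0.42). None was called against untreated cells, while 36% of all members and 3.71% of all genes were called lower. POL30 encodes PCNA, the sliding clamp of replication. It stood at 11.91, 12.40, 12.02 and 13.77 untreated, 11.99, 12.34, 12.42 and 11.94 under arsenite, then 13.36, 12.93, 13.06 and 13.25 under t-BOOH. The arsenite values overlapped the first 3 untreated arrays and lay below all t-BOOH values.

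POL12, a subunit of DNA polymerase alpha, stood at 8.71, 9.52, 8.42 and 10.67 untreated, 8.75, 8.95, 9.22 and 8.83 under arsenite, then 9.18, 10.03, 9.87 and 9.98 under t-BOOH. CDC9, the replicative DNA ligase, stood at 9.94, 10.50, 9.71 and 11.03 untreated, 9.84, 9.84, 9.58 and 9.90 under arsenite, then 10.69, 10.17, 10.13 and 10.31 under t-BOOH. Both overlapped between arsenite and untreated arrays. Against t-BOOH 8 of the 12 members were lower (background 24.2%). POL30 was lower by a difference of -0.98 (adjusted p = 0.0107) and the clamp loader subunit CTF8 by one of -1.12 (adjusted p = 0.000746). Leaving out untreated replicate 4 made the count against t-BOOH 10 of 12 (background 28.1%). In that fit 7 (POL30, POL12, RFC3, CTF8, RNH201, RRM3 and NSE3) were called higher under t-BOOH than in untreated cells (background 29.2%). With all arrays 0 were (background 24.1%). Without untreated replicate 4 POL30 stood at 0.05 under arsenite and 1.02 under t-BOOH (adjusted p = 0.927 and 0.000246). The other members were RFC3, RAD27, RNH201, RNH202, RRM3, SMC1, NSE3 and CSM2. In the list of DNA replication and chromatin, which holds 6 members, 5 of 74 genes were called lower (6.76%, against 3.71% of all genes). There 3 were called higher, against 6.29% of all genes, and the median was -0.02. The 5 lower ones were the histone genes HHF2, HTB2, HTA2, HHF1 and HTA1, none of them members, with differences of -1.04 to -0.58 under arsenite and of -2.77 to -1.32 under t-BOOH. Of these, HTB2 and HHF1 alone were called lower under arsenite without untreated replicate 4.

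Of 7 members that serve chromosome segregation and microtubules, OKP1, a kinetochore subunit, was called lower at -0.81 (SE 0.22, adjusted p = 0.019). BIM1 stood at 8.93, 9.12, 9.10 and 10.02 untreated, 8.75, 9.04, 9.39 and 8.80 under arsenite, then 10.94, 9.62, 9.80 and 9.84 under t-BOOH, so its arsenite values overlapped the untreated ones, and its t-BOOH values lay above the first 3 untreated arrays. The kinetochore gene CTF13 was at -0.32 under arsenite and 0.68 under t-BOOH (SE 0.20, adjusted p = 0.0086). MTW1, PAC1, GIM3 and TUB2, beta-tubulin, were not called under arsenite, at -0.73 to -0.38. Of the 7, 2 were called higher under t-BOOH (background 24.1%), and 4 (BIM1, CTF13, MTW1 and TUB2) without untreated replicate 4 (background 29.2%).

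**Figure D4:**
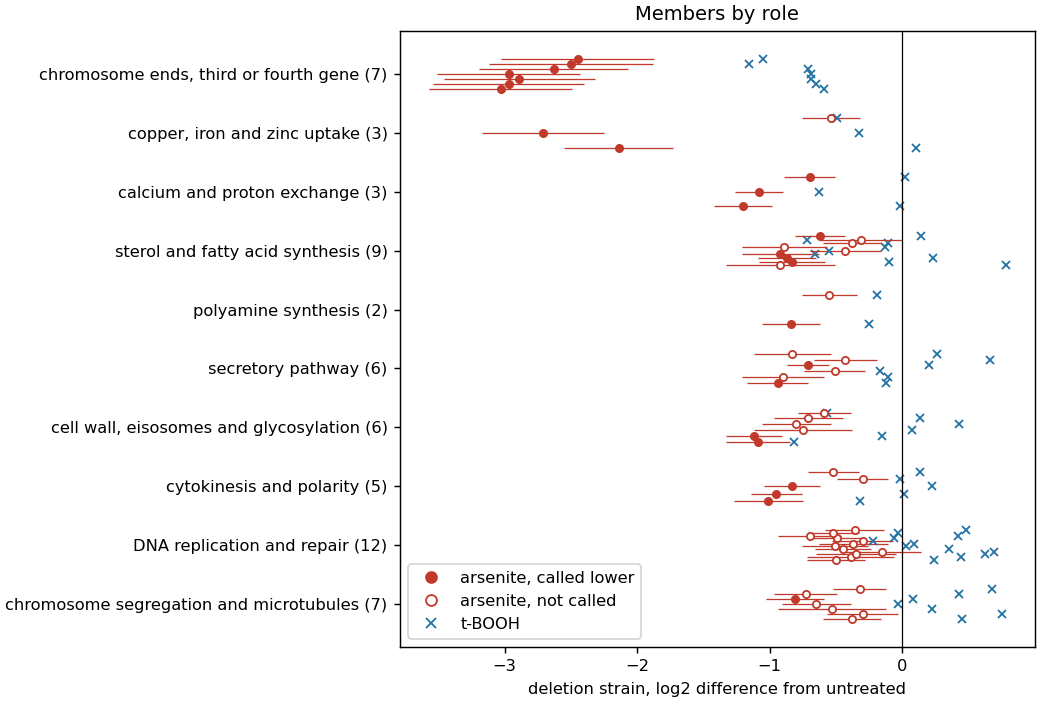
Deletion-strain log2 differences from untreated cells for the 60 members placed in role groups, with arsenite as circles with standard errors, filled where called, and t-BOOH as crosses. The chromosome-end genes, CTR1 and FRE1 lie at -2.14 or lower, and all 12 DNA replication and repair circles are open.

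Other lists held members with smaller or no separation between groups. GUK1, guanylate kinase, stood at 12.23, 12.48, 12.29 and 14.01 untreated, 12.09, 12.22, 12.70 and 12.05 under arsenite, then 13.58, 12.96, 12.93 and 13.19 under t-BOOH. PAB1, the poly(A)-binding protein, stood at 14.14, 14.02, 13.68 and 14.82 untreated, 14.02, 13.58, 14.19 and 13.92 under arsenite, then 14.61, 14.04, 13.66 and 13.69 under t-BOOH. Neither was called, at -0.48 and -0.24. GCN20, a regulator of the response to amino acid starvation, was dim and at -0.11, with 7.32, 7.43, 7.30 and 7.72 untreated, 7.18, 7.34, 7.22 and 7.60 under arsenite, then 7.86, 7.80, 7.34 and 7.35 under t-BOOH.

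CBF1, a factor that binds centromeres and the promoters of methionine genes, was called lower at -0.86 (SE 0.23, adjusted p = 0.0183). It stood at 13.02, 13.42, 12.66 and 14.20 untreated, 12.42, 12.41, 12.57 and 12.49 under arsenite, then 13.28, 13.07, 12.84 and 12.97 under t-BOOH. Its arsenite arrays lay below all others. LYS12, an enzyme of lysine synthesis, stood at 13.12, 13.26, 13.28 and 13.53 untreated, 12.82, 12.70, 12.89 and 12.62 under arsenite, then 12.76, 13.14, 13 and 13.04 under t-BOOH. PRO3, the last enzyme of proline synthesis, stood at 14.59, 14.87, 14.86 and 14.93 untreated, 14.41, 14.37, 14.55 and 14.20 under arsenite, then 14.92, 14.28, 14.39 and 14.56 under t-BOOH. Although arsenite values of both lay below untreated ones, neither passed (-0.54, adjusted p = 0.108, and -0.43, adjusted p = 0.201).

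ATP20, a subunit of the mitochondrial ATP synthase, ran at 13.65, 13.71, 13.48 and 14.29 untreated, 13.14, 13.35, 13.57 and 13.19 under arsenite, then 14.14, 14.08, 13.80 and 14.09 under t-BOOH. SSB2, a chaperone of the ribosome, ran at 10.38, 10.49, 9.49 and 12.32 untreated, 9.35, 9.45, 9.49 and 9.88 under arsenite, then 10.67, 11.58, 10.48 and 10.58 under t-BOOH. Neither was called against untreated cells, and both were called lower than under t-BOOH (adjusted p = 0.00373 and 0.0342). BIO5, a carrier of biotin precursors, ran at 8.38, 8.25, 8.89 and 8.85 untreated, 7.74, 7.58, 8.37 and 7.68 under arsenite, then 8.03, 8.0, 8.05 and 8.30 under t-BOOH, and was not called (-0.75, adjusted p = 0.0908). FDO1 ran at 8.40, 9.32, 8.26 and 10.24 untreated, 8.57, 8.87, 8.89 and 8.67 under arsenite, then 9.58, 9.21, 9.46 and 9.28 under t-BOOH. FDO1 was among the 8 named members with the lowest wild-type differences, yet in the deletion strain its arsenite values lay inside the untreated range (-0.30, adjusted p = 0.644).

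None of the 157 measured genes of ribosome biogenesis is a member. In the wild type 149 of them were called lower under t-BOOH (median -2.0), so the rule's t-BOOH limit kept most out whatever arsenite did. Under arsenite 31 of the 157 were called lower in the wild type, where 10.5% of all genes were, and 1 higher, where 12.5% of all genes were. In the deletion strain under arsenite 2 of the 157 were called lower (1.27%, against 3.71% of all genes), with a median of -0.29. Without untreated replicate 4 there were 11 (background 4.02%), with a median of -0.37. Of 26 measured genes of stress carbohydrates and heat shock, 0 were called lower, against 3.71% of all genes, and 9 higher, against 6.29%. These counts were 0 and 10 without untreated replicate 4, and 1 of the 26 is a member.

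Among the smallest changes in the deletion strain were KLLA0C17226g (0.03), GCN20 (-0.11), KLLA0C14740g (-0.14), RNH201 (-0.15), a subunit of ribonuclease H2, and KLLA0A05687g (-0.19). KLLA0C17226g, KLLA0C14740g and KLLA0A05687g were also the dimmest members in untreated deletion cells, at mean levels of 6.11 ± 0.10, 6.39 ± 0.05 and 6.50 ± 0.07 (SD, n = 4). They were well above background there on 1, 3 and 3 of the 4 arrays, so a fall could be measured over a short range only. The brightest were KLLA0F00220g at 15.81 ± 0.51, KLLA0E00177g at 15.77 ± 0.46 and KLLA0A00154g at 15.77 ± 0.55 (SD, n = 4).

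In the wild type, whose values chose the members, the same fit called 104 of the 125 lower under arsenite (83.2%, against 10.5% of all genes; 87 members without untreated replicate 4), and nothing is read from that count. Ratios of deletion over wild type hold the same wild-type values and are given as description. Under arsenite 4 members were called higher in the deletion strain (3.2%, against 0.907%), namely RSN1 at 0.64, KLLA0B01826g at 0.60, SPE1 at 0.50 and SGF29 at 0.34, and 0 were called lower, against 3.39%. The ratios of RSN1 differed between arrays (SD 0.68), at 0.83 and 1.5 on arsenite replicates 1 and 3. They were 0.26 and -0.04 on replicates 2 and 4, where the dyes were exchanged. Without untreated replicate 4 the higher ratio calls under arsenite numbered 2 (background 0.967%). KLLA0C01496g (-0.94) was the 1 member called lower in untreated cells (0.8%, against 0.612%). Under t-BOOH 18 were called lower (14.4%, against 10.6%), with BIO5 (-1.52), NPT1 (-1.07), KLLA0E14015g (-1.03), CRH1 (-0.95) and ADH4 (-0.94) furthest from 0, and 4 higher (3.2%, against 7.42%), namely BIM1 (0.58), MTW1 (0.35), COQ5 (0.35) and CTF13 (0.28).

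**Figure D5:**
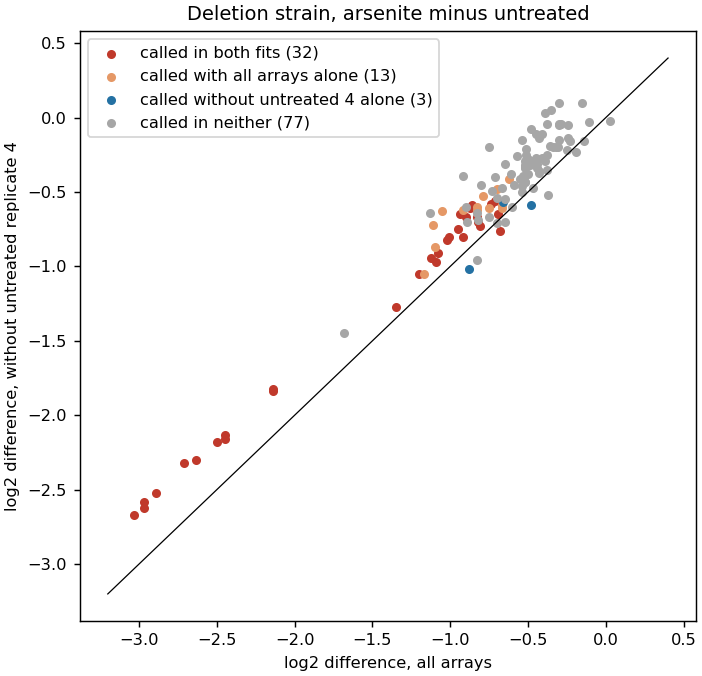
Each point is a member, with its deletion-strain log2 difference between arsenite and untreated cells from all arrays on the horizontal axis and without untreated replicate 4 on the vertical axis, and a line of equality. The points lie mostly above the line, where the difference is nearer 0, and 32 members (dark red) were called lower in both fits.

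Calls that held in every fit with 1 array left out numbered 23 of the 45, a count that was not made for other genes. They were the 7 chromosome-end genes, the transporters CTR1, DTR1, GDT1, VCX1 and CTP1, the reductase FRE1, the surface proteins SUR7 and CRH1, the myosin light chain MLC1, the p24 proteins EMP24 and ERV25, the sterol enzyme ERG4, PAN5 of pantothenate synthesis, and KLLA0B01826g, KLLA0A00352g and KLLA0F02662g. CTP1, the mitochondrial citrate carrier, fell by 1.02 (SE 0.26, adjusted p = 0.0139). KLLA0B01826g, with no symbol, fell by 1.35 (SE 0.22, adjusted p = 0.000416).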

How the data were processed

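The members, the gene lists and the role groups were chosen with earlier results of these data known. Per the file headers, the arrays were read by the scanner software Feature Extraction 10.7.3.1, and the deposited intensity values per spot are median pixel brightness without normalization and processed signals that the software background-subtracted and dye-normalized. A table of log2 values per array was deposited by the authors. It correlated with the log2 deletion over wild-type ratios computed here at r of 0.991 to 0.999 over genes. Its column medians were -0.03 to 0.01, and its normalization and centring, like the genome build of the array, are not given in the sources used.

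The rule used the deposited processed intensity of the wild-type channel. For all tests, median signals were background-corrected by normexp with an offset of 50, normalized by loess within arrays and Aquantile between arrays, and averaged over the spots of a gene, in limma 3.58.1 under R 4.3.3. Tests covered genes that stood well above background, in 1 channel or both, on 4 or more arrays, which left out 12 of the 5081 as dim. The 24 channels were fitted together by limma's separate-channel method, with strain and condition as the group and with a dye term (17 residual and 4.91 prior degrees of freedom). Ratios were fitted with a term per condition and 1 for the dye (8 and 4.61). Calls are at a Benjamini-Hochberg adjusted p under 0.05 over the genes tested. The fits were tested on simulated data. A "level" is a normalized log2 intensity of a channel, and a "difference" is between fitted group means of such levels. It is relative to the other genes of the array, so a fall of all RNA together would not appear, and levels of different genes are not comparable. The number of arrays limits the precision.

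Dyes and strains came from the labels. Whether the 4 experiments of a condition were separate cultures is stated only as biological experiments.

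Genes given on every array were the 8 members with a symbol and the 4 of any name with the lowest wild-type arsenite differences, and the 3 lowest members of each of 22 gene lists of Saccharomyces cerevisiae symbols. VCX1, SPE1, SPE3 and the other members named by role were chosen after their values were seen. Names, gene order and coding length were read from RefSeq's annotation of ASM251v1, which matched all 125 members. The rule left out 1 gene, which is not reported here.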

Additional observations from a re-analysis of the deposited data

Results flagged for a closer look

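Among 30 genes with values on every array, 180 groups of 4 arrays were tested for a single array far from the others, and 21 were flagged, where chance flags about 1 in 20 groups. Of these, 12 were on untreated replicate 4, the array given above as standing apart. In the deletion strain it was far above its group for GUK1 (14.01, others up to 12.48), ERG10 (14.60, others up to 13.78) and EMP24 (14.26, others up to 13.10). In the wild type it was far above for BIO5 (10.10), ERG13 (14.27), ZRT2 (13.60), ERG10 (14.80), POL12 (10.35), POL30 (13.79), EMP24 (14.30) and SSB2 (12.58), and far below for CTR1 (14.07, others from 15.11).

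The other 9 were smaller or concerned other arrays. Under arsenite these were wild-type FRE1 (8.25) and CTR1 (11.98) on replicate 4, GUK1 (11.56) and CRH1 (10.56) on replicate 1, and deletion-strain ERG13 (11.14) on replicate 2 and MYO1 (7.17) on replicate 4. Under t-BOOH they were deletion-strain BIO5 (8.30) on replicate 4, and BIM1 (10.94) and BUD4 (7.36) on replicate 1.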

How the results depend on the processing

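Beyond the arrays left out in the report, these counts of the 125 members rested on a few choices. Percentages in brackets are the share of all genes called in the same fit. With 1 array left out at a time, lower calls of the deletion strain under arsenite ran from 26 (1.74%) to 77 (9.35%). Under t-BOOH lower calls ran from 4 (17%) to 12 (23.1%) and higher calls from 3 (19.3%) to 35 (29.2%). Lower calls against t-BOOH ran from 56 (19.7%) to 86 (28.1%), and wild-type lower calls from 73 (4.97%) to 117 (17.7%). Higher ratio calls under arsenite ran from 0 to 17 (3.43%), with 0 lower ratio calls throughout (0.572% to 5.31%). The extremes came without arsenite replicate 3 and t-BOOH replicate 1 for the first, untreated replicate 2 and t-BOOH replicate 1 for the second, untreated replicates 3 and 4 for the third, and t-BOOH replicate 3 for the last maximum. Channel medians in place of Aquantile gave 29 lower calls under arsenite (1.91%), against 45 in the report, and 1 under t-BOOH (17%), against 6 in the report. The deletion channels alone gave 13 lower calls under t-BOOH (18.9%). Without both arrays that stood apart, a choice made after seeing the data, 71 members were lower under arsenite (13.6%). In that fit 11 were lower (28%) and 41 higher (36.1%) under t-BOOH. The causes were not tested. With the untreated and arsenite arrays alone, which share a slide, 63 were lower under arsenite (7%). Ratio calls under arsenite numbered 2 higher with processed signals (0.651%), and 21 higher (7.18%) and 1 lower (7.26%) with the 4 arsenite arrays alone.

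The replicate block gave 1 higher ratio call under arsenite (4 in the report) and 44 lower, 7 lower and 9 higher calls for the deletion strain under arsenite and t-BOOH, and moved no other count of calls by over 1.5 times. The shares of all genes called were 1.5%, 3.67%, 19.6% and 24.1% in that order. Deviations of same-numbered arrays from their group means correlated at -0.407 to 0.473, with both signs, and the numbers were not taken as pairs. Untreated and arsenite replicates 1 correlated at 0.264 in deletion-strain levels, 0.473 in wild-type levels and 0.404 in ratios. Arrays of different number were not compared. The rule itself gave 73 to 172 genes with 1 array left out, the first without untreated replicate 4, and 63 at an arsenite limit of -1.

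Of the 45 genes called lower in the deletion strain under arsenite, 22 were called in all 21 alternatives. The deletion-strain difference was below 0 in all of them for 120 of the 125 members. Both counts were made for the members alone, so no share of all genes stands beside them.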
